A study of Mus musculus with 18 samples.

Results

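The genes described here are the ubiquitin-conjugating enzymes, or E2s, of mouse NIH3T3 cells, apart from 7 set aside as partners of the E3 ligase TRIM21. Whether any of the others also works with TRIM21 was not examined. They were taken as all gene symbols in the count tables that begin with Ube2, leaving out Ube2n, Ube2v1, Ube2v2, Ube2w, Ube2d1, Ube2d2a and Ube2d3. The rule found 30 of the 37 Ube2 symbols among 24062 listed symbols, and 25 of the 30 had enough counts to be tested. In ubiquitination an E1 enzyme activates ubiquitin, an E2 receives it on a cysteine, and an E3 ligase brings the loaded E2 to the substrate. Most E2s serve many E3s, whereas some carry a related modifier such as SUMO, NEDD8 or ISG15 in place of ubiquitin. 1 member, Ube2cbp, is named for the UBE2C-binding protein it encodes, which is not an E2 itself.

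NIH3T3 is an embryonic fibroblast line. The series compared this parental line (WT) with a line derived from it that carries mCherry-mTRIM21, a fusion of mouse TRIM21 to a red fluorescent protein (TRIM21 line). Cells of both lines were electroporated with PBS alone, with the serum protein BSA or with an antibody (IgG), which made 6 groups of 3 samples, and polyA RNA was sequenced 16 h later. All 18 samples were electroporated, with 2 pulses of 20 ms at 1400 V, and the BSA and IgG reactions held 7.5 µg of protein. TRIM21 binds the constant part of antibodies, so an antibody placed inside a cell brings the ligase to whatever that antibody recognises. There is only 1 derived line and the labels give neither its promoter nor whether it is a clone, so an effect of the fusion cannot be told apart from other differences of that line. Nothing in the labels says that the 3 samples of a group came from separate cultures, so p-values measure the spread between these samples, which may be technical. The samples of a group are named below by the number in their titles, 10, 11 or 14.

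The promoters of Ube2c and Ube2t are shown first, because the RNA of these genes and of Ube2s was highest in the same-numbered sample of each group. UBE2C and UBE2S start and lengthen ubiquitin chains for the anaphase-promoting complex, which ends mitosis, and UBE2T works in the Fanconi anaemia pathway of DNA crosslink repair. The 250 bases before the RefSeq start site (promoter table, GRCm38.p6) were searched for all 3, at chr2:164769679-164769928 on the plus strand (Ube2c), chr7:4812341-4812590 on the minus strand (Ube2s) and chr1:134962315-134962564 on the plus strand (Ube2t). The GENCODE annotation used for the lengths below starts Ube2s 250 bases and Ube2c 31 bases further upstream, so the whole Ube2s window and the last 31 bases of the Ube2c window lie inside the gene by that annotation and are not printed. The letters below are 5′ to 3′ and end at base 164769897 for Ube2c. Capitals mark CCAAT, the CCAAT box, on either strand (ATTGG is the reverse strand). TTTGAA, the core of the cell cycle genes homology region found in many mitotic promoters, was searched in the same way.
Ube2c: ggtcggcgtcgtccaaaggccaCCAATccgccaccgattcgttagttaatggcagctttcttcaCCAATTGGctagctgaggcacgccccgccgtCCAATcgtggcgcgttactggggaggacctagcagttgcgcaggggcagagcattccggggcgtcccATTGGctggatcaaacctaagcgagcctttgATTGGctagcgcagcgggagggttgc
Ube2t: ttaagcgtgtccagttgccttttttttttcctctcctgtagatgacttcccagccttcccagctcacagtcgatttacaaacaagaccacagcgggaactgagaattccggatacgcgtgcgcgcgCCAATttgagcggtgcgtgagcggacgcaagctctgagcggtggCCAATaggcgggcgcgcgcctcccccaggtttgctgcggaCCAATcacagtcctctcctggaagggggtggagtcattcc

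The Ube2c window held 6 CCAAT matches, of which the pair around base -183 overlapped on opposite strands, and 1 TTTGAA match on the reverse strand from base -29 to -24, inside the GENCODE gene. Among 32851 promoters of the same length, 19 (0.0578%) held at least 6 CCAAT matches and 16.0% held at least 1 TTTGAA match. The Ube2t window held 3 CCAAT matches and no TTTGAA, and 2.79% of promoters held at least 3. The Ube2s window held neither motif, while 33.9% of promoters held at least 1 CCAAT. Of the 30 members, 26 had a promoter in the table, with 34 start windows, of which 8 held CCAAT and 4 held TTTGAA. These matches are a description of the letters in these windows.

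The TRIM21 samples held 20314542 to 29766433 gene counts and the WT samples 19509017 to 26521824 (n = 9 each). Trim21 itself checked the labels, with 142 to 223 counts in the WT samples and 19900 to 32225 in the TRIM21 samples, a log2 fold change of 7.02 (SE 0.0957, edgeR quasi-likelihood adjusted p = 2.32e-19). Defining fibroblast genes were abundant, Col1a1 at 1342 to 5019 CPM (counts per 1e+06 gene counts, scaled by TMM factors) and Vim at 5213 to 7209, although the fibroblast activation gene Fap never exceeded 1 count. Of 9 tested fibroblast markers, 8 had a log2 fold change below 0 between the lines and 1, Thy1, was called lower in the TRIM21 line (-0.29). Over all tested genes 54.0% were above 0 and 6.18% were called in either direction (adjusted p under 0.05). Markers of other cell types were low, with summed levels of at most 0.583 CPM for 4 epithelial genes, 4.76 to 8.65 CPM for 5 immune genes (nearly all Cd68, with Cd3e and Emr1 at 0) and 0.335 to 2.45 CPM for 3 endothelial genes (mostly Cdh5, up to 2.15). A library stood apart from the rest, sample 11 of the TRIM21 line after PBS, which was the highest of the 18 samples for 24.7% of all tested genes and the lowest for 23.7%. The next was sample 14 of the WT line after PBS, at 16.2% and 17.5%. The first also had the lowest fibroblast marker sum, 16747 CPM against 23043 to 32223 in the other 17 samples, and the highest endothelial sum, 2.45 CPM. Each of these libraries was left out in turn in fits given below. Why they stood apart was not tested. Without the first library 2 fibroblast markers, Pdgfra and Thy1, were called lower in the TRIM21 line, and 1 of 9 was above 0. Many of the members' values below are given with and without this library, but those of the interactions only with it.

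E2-family RNA spanned a wide range of levels in these fibroblasts, from the NEDD8 enzyme Ube2m down to 4 genes without a single read. Levels were compared between genes as RPKM, the TMM-scaled CPM per kilobase of annotated exon, and are given as the mean ± SD over 18 samples. Ube2m, which charges cullins with NEDD8, was highest at 68.3 ± 7.99. Next came Ube2z, the E2 that UBA6 loads with FAT10 or ubiquitin, at 48.4 ± 1.94, and Ube2b, a RAD6-type E2 of DNA damage tolerance and histone H2B ubiquitination, at 48.1 ± 6.23. Ube2r2, a CDC34-type E2 that builds chains on cullin-RING ligases, stood at 26.8 ± 2.82, and Ube2l3, the E2 of HECT and RBR ligases such as parkin, at 26.8 ± 2.35. The lowest of the tested genes were Ube2s at 4.52 ± 0.925, Ube2cbp at 2.66 ± 0.724, Ube2f at 2.03 ± 0.341, Ube2t at 1.42 ± 0.229 and Ube2j2 at 0.497 ± 0.0797. The mean of Ube2m was 137 times that of Ube2j2, which had 33 to 82 counts per sample.

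The levels formed a near-continuous order. Of 24 neighbouring pairs in it, 21 had overlapping ranges over the 18 samples, and only Ube2m over Ube2z, Ube2b over Ube2r2 and Ube2t over Ube2j2 were apart. Among the 25 tested members, 19 lay above 6.72 RPKM, the median of the 12058 tested genes with a known exon length, and the members' median was 15.3. With the longest transcript as the length, Ube2m stood at 109, Ube2b at 57.1, Ube2l3 at 51.9, Ube2z at 48.4 and Ube2r2 at 31.2. No tested member then moved by more than 5 ranks, and 4 of the 5 highest were shared with the order by exon length.

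**Figure D1:**
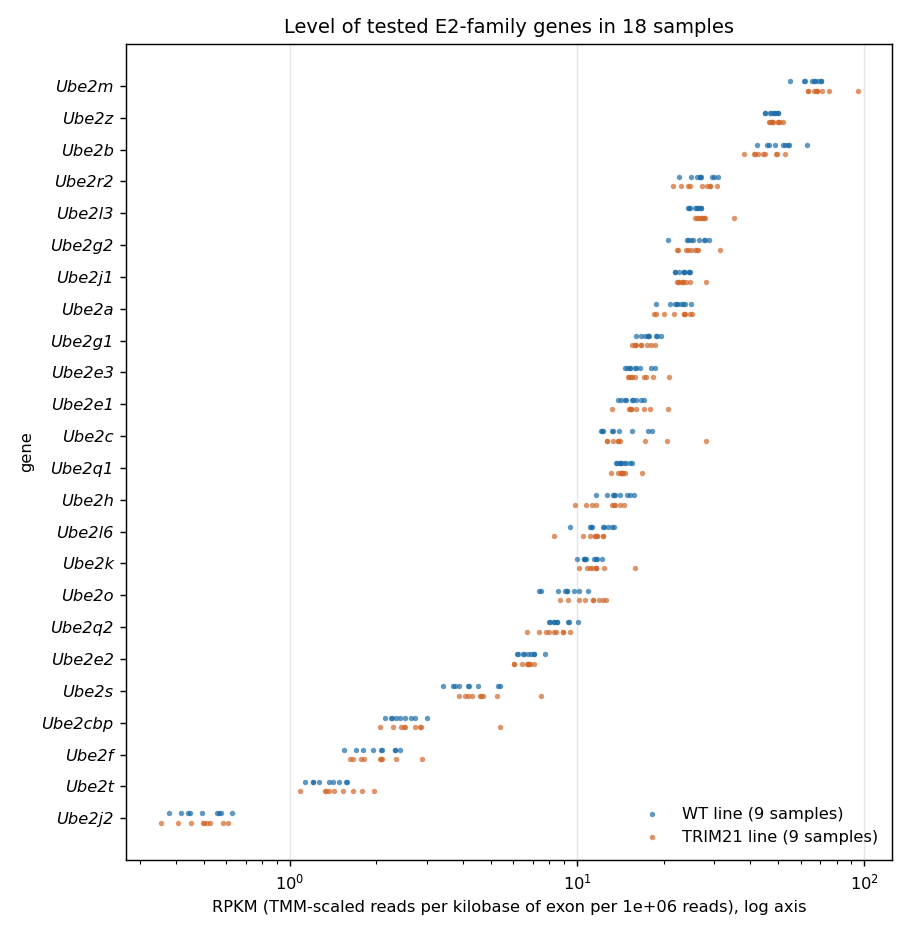
Level of the tested genes reported here in each of the 18 samples, as RPKM on a log axis, ordered by mean; points are samples, blue for the WT line and orange for the TRIM21 line. The points of the lines lie on top of each other for most genes, while the means run from 0.497 RPKM (Ube2j2) to 68.3 RPKM (Ube2m).

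The group means kept close to these levels. For Ube2m they were 61.4, 69.0 and 65.8 RPKM in the WT line after PBS, BSA and IgG, and 76.4, 67.8 and 69.1 in the TRIM21 line. For Ube2z the corresponding means were 46.4, 47.6 and 49.6, then 50.4, 49.0 and 47.6, and for Ube2r2 they were 26.9, 26.6 and 28.1, then 27.4, 26.3 and 25.6. The ranges of these group means were apart between Ube2m, Ube2z and Ube2r2. For Ube2l3 the means were 24.5, 26.2 and 26.5 in the WT line and 29.6, 27.1 and 26.9 in the TRIM21 line, a range that took in that of Ube2r2. At the low end, Ube2f had means of 1.95, 2.17 and 1.93 RPKM in the WT line and 2.34, 1.93 and 1.83 in the TRIM21 line, and Ube2j2 had 0.524, 0.513 and 0.464, then 0.449, 0.529 and 0.506. The highest Ube2m, Ube2z and Ube2f mean was in each case that of the TRIM21 line after PBS. For each of them sample 11 of that group was the highest of the 18 samples, at 223, 208 and 25.4 CPM, so these means lean on 1 library. Spread over the 18 samples, as the coefficient of variation of CPM, had a median of 10.7% for the members (lowest for Ube2z, highest for Ube2cbp at 27.2%) and 13.1% for all 12140 tested genes.

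The 5 members below the filter were silent or nearly so. Ube2d2b, Ube2dnl1 and Ube2dnl2, extra UBE2D-type genes of the mouse, and Ube2ql1, a UBE2Q-like gene, had 0 counts in all 18 samples. A count of 0 allows up to 3 counts, which came to 0.0981 to 0.152 CPM. Ube2u had 7 counts in all, spread over 5 samples with at most 2 each, of which 1 was a WT sample. No fold change is given for these genes. Some tested members share sequence with other genes, and reads from such stretches may not have been counted for them. Of the 50-base windows in the longest transcript, matched on either strand, 58.9% for Ube2l3, 46.3% for Ube2h and 20.9% for Ube2q2 also occur in transcripts of another gene. For Ube2l3 the gene with the most shared windows was Ydjc (54.65%), so most of its share is the opposite-strand overlap given next. In all, 16 tested members shared less than 5%. Exons of Ydjc overlap 28.6% of the Ube2l3 exons on the opposite strand, those of Tnnc2 22.8% of Ube2c, those of Nkiras1 16.1% of Ube2e1 and those of Rpl28 3.56% of Ube2s. The libraries were strand-specific per the labels, but the strand setting of the counting is not given in the sources used here, so the levels of Ube2l3, Ube2c and Ube2e1 are uncertain to that extent.

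The question of the first comparison was whether E2-family RNA differed between the lines, with the treatments averaged. None of the 25 tested members passed an adjusted p of 0.05 (edgeR quasi-likelihood test, Benjamini-Hochberg over 12140 genes), where 6.18% of all tested genes did. An unadjusted p under 0.05 was reached by 2 members, Ube2o and Ube2b, where 21.4% of all tested genes reached it. DESeq2 gave 3 members at that level and called 1, and limma-voom gave 2 and called 0. Over all tested genes they called 1040 and 735. The members' log2 fold changes, TRIM21 against WT, ran from -0.18 to 0.26 with a median of 0.023, and 14 of 25 were above 0. Over all tested genes the median was 0.014 and 54.0% were above 0. The 95% intervals of the members reached from -0.34 to 0.48 at the extremes, and extended a median of 0.15 to either side, so differences within those bounds were not resolved.

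**Figure D2:**
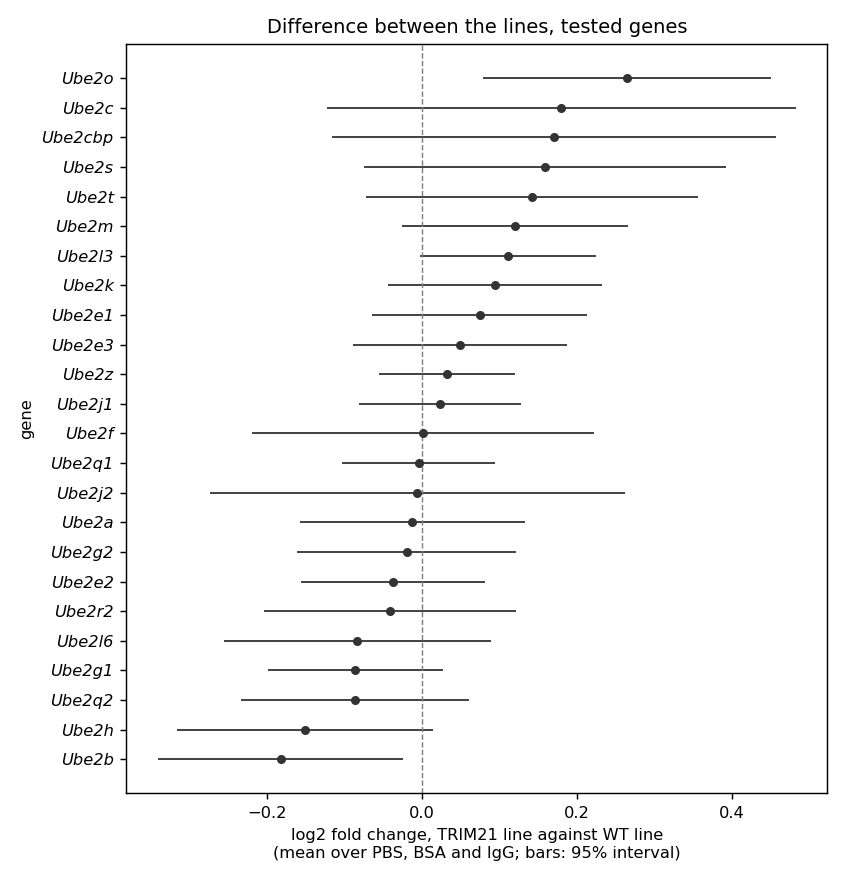
Log2 fold change of the TRIM21 line against the WT line for each tested gene reported here (points), averaged over the treatments with equal weight, with the 95% interval (bars). The values run from -0.18 for Ube2b to 0.26 for Ube2o, and the intervals of these 2 genes alone do not reach 0.

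Ube2o had the largest difference. It encodes a large hybrid E2 and E3 enzyme that removes unassembled proteins, with a known role in ribosome clearance during red cell maturation, and lies at chr11:116537740-116581447 on the minus strand (GRCm38). In the WT line its CPM in samples 10, 11 and 14 was 53.9, 48.0 and 38.8 after PBS, 48.8, 45.2 and 51.5 after BSA, and 48.8, 39.7 and 57.8 after IgG. In the TRIM21 line it was 56.3, 49.0 and 60.0 after PBS, 60.1, 46.1 and 65.0 after BSA, and 66.8, 63.0 and 53.6 after IgG. The TRIM21 mean was the higher one under each treatment, yet the ranges of the lines overlapped under each. Averaged over the treatments, the log2 fold change was 0.26 (SE 0.088, 95% interval 0.079 to 0.45; edgeR adjusted p = 0.0863). The adjusted p ran from 0.0014 to 0.101 over the other ways of processing and from 0.0442 to 0.187 when single samples were left out. It was 0.0399 with the sample number as a block, 0.00874 with a GC correction, 0.0014 with both and 0.0475 in the DESeq2 Wald test, so the call depends on the method.

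Ube2b lay at the other end. In the WT line its CPM in samples 10, 11 and 14 was 98.6, 113 and 135 after PBS, 116, 104 and 115 after BSA, and 97.3, 111 and 89.7 after IgG. In the TRIM21 line it was 94.6, 88.5 and 105 after PBS, 90.6, 105 and 95.6 after BSA, and 81.3, 88.1 and 113 after IgG. The TRIM21 mean was the lower one under each treatment, again with overlapping ranges. The log2 fold change was -0.18 (SE 0.075, edgeR adjusted p = 0.169), and it passed the threshold only with the block and the GC correction together (adjusted p = 0.03). Sample 14 of the WT line after PBS held the highest value of the 18. With single samples left out in turn, the log2 fold change ran from -0.24 to -0.14 (edgeR adjusted p = 0.0526 to 0.313). Its RAD6 partner Ube2a, which shares its function in DNA damage tolerance, had a log2 fold change of -0.012 (SE 0.069), and -0.037 without sample 11 of the TRIM21 line after PBS.

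**Figure D3:**
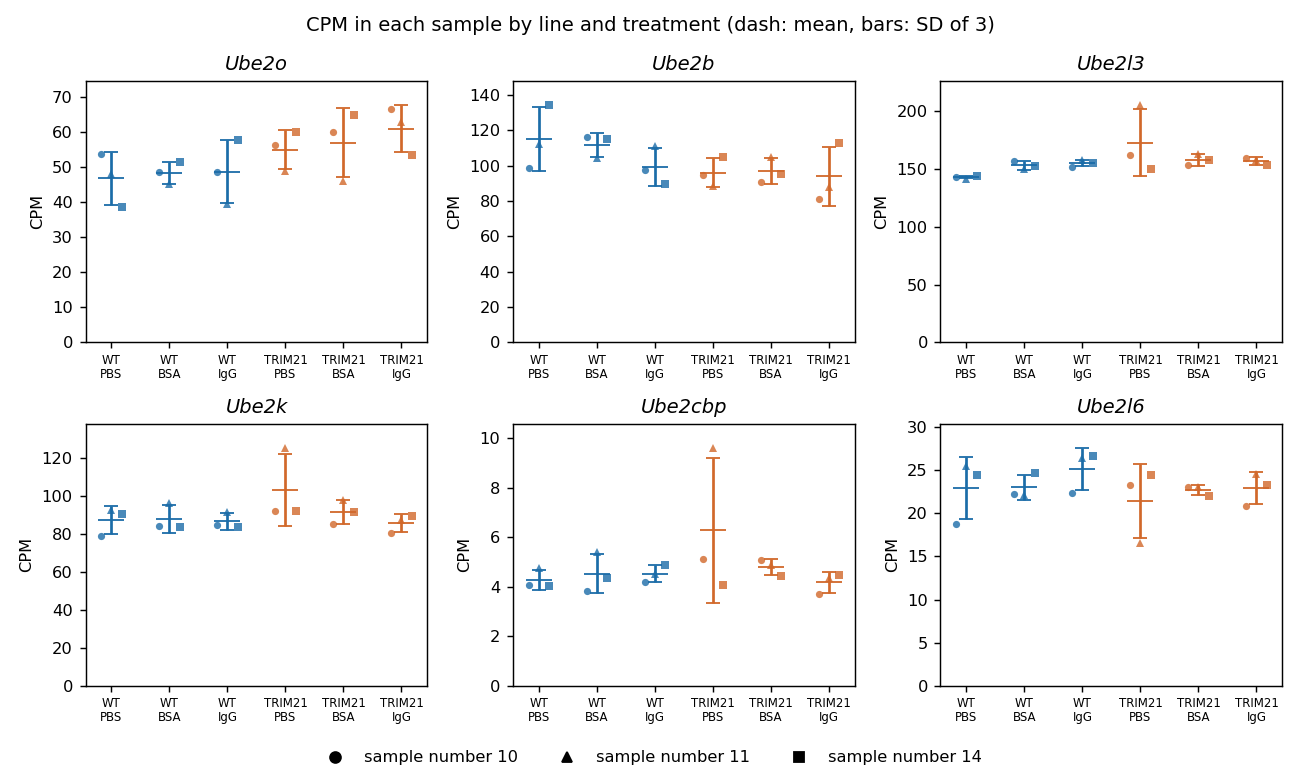
CPM of 6 genes in each sample, by line (blue WT, orange TRIM21) and treatment; symbols give the sample number, dashes the group mean and bars the SD of 3 samples, with each axis starting at 0. In Ube2l3, Ube2k and Ube2cbp, sample 11 of the TRIM21 line after PBS stands above all others (206, 125 and 9.60 CPM), and in Ube2l6 it is the lowest at 16.6 CPM.

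By role, the other ubiquitin E2s had log2 fold changes between the lines within the same narrow range. The UBE2E genes, whose products have extended N-termini and serve many RING ligases, had log2 fold changes of 0.075 (Ube2e1, SE 0.066), -0.037 (Ube2e2, SE 0.056) and 0.049 (Ube2e3, SE 0.065). Without sample 11 of the TRIM21 line after PBS these were 0.030, -0.026 and 0.0066. The E2s of endoplasmic reticulum-associated degradation, Ube2g1, Ube2g2, Ube2j1 and Ube2j2, ranged from -0.086 to 0.023, or -0.087 to 0.012 without that sample. Among the chain builders, Ube2k, which builds lysine-linked chains, had 0.094 (SE 0.066), Ube2r2 had -0.041 (SE 0.077), and Ube2h, the E2 of the CTLH ligase, had -0.15 (SE 0.079). Without that sample the 3 values were 0.033, -0.078 and -0.12. The less studied Ube2q1 and Ube2q2 had -0.0041 and -0.086, and -0.037 and -0.11 without it. None of these passed the edgeR test in any of the 13 comparisons of the main fit. With the sample number as a block and a GC correction together, Ube2h was called averaged over the treatments, and Ube2e1 and Ube2k after PBS. Those fits called 2364 and 1987 of all tested genes.

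Enzymes of other modifiers were considered with their partners. The SUMO E1 subunits Sae1 and Uba2 had log2 fold changes of 0.17 and 0.13 between the lines, neither passing the test. The SUMO gene Sumo3 did pass it and was lower in the TRIM21 line, at 0.643 to 1.43 CPM against 3.43 to 4.74 in the WT line, with no overlap between 9 and 9 samples. Its log2 fold change was -1.89 (SE 0.116, edgeR adjusted p = 3.76e-09) at 13 to 110 counts per sample, whereas Sumo2 had -0.062. For NEDD8, Ube2m had 0.12 (SE 0.069) and Ube2f, the E2 for the cullin CUL5, 0.0015 (SE 0.10), which became 0.052 (SE 0.053) and -0.064 without sample 11 of the TRIM21 line after PBS. Ube2z had 0.033 (SE 0.042), and 0.017 without it.

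Ube2l6 conjugates ISG15 and is an interferon response gene. Its CPM in samples 10, 11 and 14 was 18.8, 25.5 and 24.5 after PBS, 22.2, 22.1 and 24.7 after BSA and 22.4, 26.4 and 26.7 after IgG in the WT line. In the TRIM21 line it was 23.3, 16.6 and 24.5, then 23.0, 23.1 and 22.1, then 20.9, 24.6 and 23.3. The groups overlapped throughout, with a log2 fold change between the lines of -0.083 (SE 0.082) and of 0.093 (SE 0.14) for IgG against PBS in the TRIM21 line. Without sample 11 of the TRIM21 line after PBS, the lowest of all, these were -0.039 (SE 0.071) and -0.042 (SE 0.13), so the sign of the second turned on that library. Of a list of 20 interferon response genes, 17 were tested, 1 was higher (Ifit2, log2 fold change 0.33) and 2 were lower in the TRIM21 line (Cmpk2 at -0.84 and Ifi44 at -0.94), and no member of the list passed in a treatment comparison. Across the list 2 of 17 were above 0 with a median of -0.22, where 6.18% of all tested genes were called and 54.0% were above 0. Without the same sample Ifit2 (0.24) and Ifi44 (-0.87) no longer passed and Cmpk2 and Stat2 were called lower, with a median of -0.16. The list's summed CPM was 139 to 183 in the WT samples and 117 to 164 in the TRIM21 samples. The part of interferon genes in the Ube2l6 values was not tested.

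Other genes of the pathway were compared between the lines in the same way. None of 8 E2-type genes with other names (Cdc34, Birc6, Tsg101, Uevld, Aktip, Ufc1, Atg3 and Atg10) passed the test, with 3 above 0 and a range of -0.22 to 0.17. Nor did any of 9 E1 genes, of which 6 were above 0, among them Uba1, the main ubiquitin E1, at 0.13 (SE 0.061). Of 10 modifier genes 1 passed, Sumo3. The 7 excluded Ube2 genes ranged from -0.11 to 0.089 with 0 calls. Over all tested genes 6.18% were called, and lists this short cannot show fewer calls than that share.

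Within single treatments, the comparison of the lines after PBS moved with 1 library. None of 25 members passed the adjusted threshold, against 1.71% of all tested genes, but 6 had an unadjusted p under 0.05 (among them Ube2cbp, Ube2k, Ube2l3, Ube2m and Ube2s; a share near that of all tested genes, 19.8%), 8 by DESeq2 and 3 by limma-voom. With the sample number as a block Ube2s was called (adjusted p = 0.0453), with the block and the GC correction 4 members (Ube2e1, Ube2k, Ube2l3 and Ube2s), and without sample 14 of the TRIM21 line 2 (Ube2cbp, adjusted p = 0.0413, and Ube2l3, 0.0358). Over all tested genes these fits called 847, 1987 and 1018 in turn, against 208 in the main fit, so calls rose widely and not in these members alone. The log2 fold changes of the 5 genes named first ran from 0.24 to 0.54. Ube2l3 had the smallest adjusted p, 0.147, with 143, 142 and 144 CPM in the WT samples and 162, 206 and 150 in the TRIM21 samples, a log2 fold change of 0.27 (SE 0.093). Its groups did not overlap, nor did those of Ube2z, both higher in the TRIM21 line, where 6.61% of all tested genes were apart in that direction and 8.75% in the other, in which no member was.

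Sample 11 of the TRIM21 line after PBS was the highest of all 18 samples for 16 of the 25 members and the lowest for 2. In that sample Ube2m reached 223 CPM against 130 to 178 in the other 17, Ube2k 125 against 78.7 to 97.7, and Ube2cbp 9.60 against 3.70 to 5.39. Averaged over the treatments without it, 0 members were called, 13 of 25 were above 0, and Ube2cbp had 0.016 in place of 0.17 and Ube2l3 0.056 in place of 0.11. Without it, no member had an unadjusted p under 0.05 between the lines after PBS, 13 of 25 in place of 18 were above 0, and the median log2 fold change went from 0.12 to 0.0024. Ube2l3 then had 0.11, Ube2s 0.15 in place of 0.43, Ube2cbp 0.083 in place of 0.54, and Ube2c -0.063 in place of 0.37. Likewise after PBS, Ube2m had 0.12 in place of 0.31, Ube2k 0.061 in place of 0.24, and Ube2z 0.078 in place of 0.12. Ube2o had 0.30 in place of 0.23 after PBS and 0.28 in place of 0.26 over all treatments (edgeR adjusted p = 0.0902), so its difference was as large without that sample. Its lowest value, 38.8 CPM, was in sample 14 of the WT line after PBS. With single samples left out in turn, its log2 fold change over all treatments ran from 0.22 to 0.31.

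**Figure D4:**
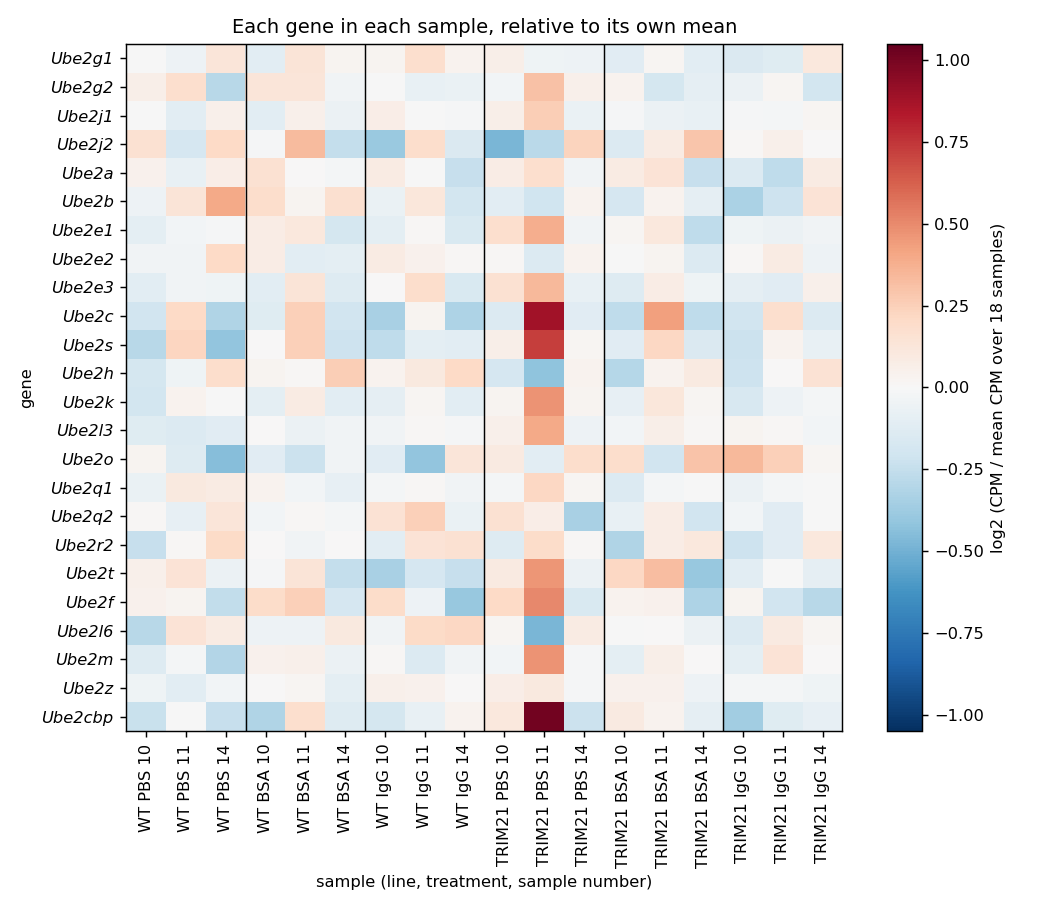
Each tested gene reported here in each sample as log2 of CPM over that gene's mean CPM, red above and blue below the mean, with genes ordered by role and samples by line, treatment and number. The column of sample 11 of the TRIM21 line after PBS is red for most genes, and 16 of the 25 tested members have their highest value there.

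After BSA 0 of 25 members passed (0.848% of all tested genes did) and 0 had an unadjusted p under 0.05 by edgeR, DESeq2 or limma-voom. In the edgeR fit 10.3% of all tested genes had one. No member's groups were apart, where those of 16.8% of all tested genes were. The members' log2 fold changes between the lines there ran from -0.20 to 0.24. After IgG 0 of 25 passed (0.774% of all tested genes did), with 1 at an unadjusted p under 0.05 by each of the 3 tools, Ube2o in the edgeR fit at 0.33 (SE 0.15). In that fit 7.79% of all tested genes had an unadjusted p under 0.05. Ube2t was apart and higher in the TRIM21 line (8.95% of genes were), and Ube2z apart and lower (10.8% of genes were). Ube2z had log2 fold changes between the lines of 0.12 (SE 0.072) after PBS and -0.061 (SE 0.072) after IgG, and the interaction of IgG against PBS with the line, -0.18 (SE 0.10, edgeR adjusted p = 0.972), did not pass the test.

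The remaining question was whether electroporated antibody altered E2-family RNA, in either line. No member passed the test for IgG against PBS, IgG against BSA or BSA against PBS in the WT or the TRIM21 line, nor for a difference between the lines in these responses. In all 9 of these comparisons 0 of 25 members and 0% of all tested genes passed the adjusted threshold. An unadjusted p under 0.05 was reached by 2 members in 1 of the 9, IgG against PBS in the TRIM21 line (5.61% of all tested genes). DESeq2 gave 3 members there and 1 each in the interactions of IgG against PBS and of BSA against PBS. Limma-voom gave 1 member in the first of these.

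These were Ube2cbp and Ube2k. Ube2cbp had 5.13, 9.60 and 4.08 CPM after PBS and 3.70, 4.35 and 4.49 after IgG in the TRIM21 line, a log2 fold change of -0.57 (SE 0.23, edgeR unadjusted p = 0.0252, adjusted p = 0.724). In the WT line it had 4.05, 4.74 and 4.03 CPM after PBS and 4.18, 4.52 and 4.88 after IgG, a log2 fold change of 0.081 (SE 0.24), the BSA groups had 4.80 ± 0.324 (TRIM21) and 4.52 ± 0.793 (WT; SD, n = 3), and the interaction with the line was -0.65 (SE 0.34, edgeR adjusted p = 0.972). Ube2k had 91.8, 125 and 91.9 CPM after PBS against 80.2, 87.1 and 89.2 after IgG in the TRIM21 line, -0.27 (SE 0.11, edgeR unadjusted p = 0.0304). Only sample 11 after PBS was far from the rest in both genes. Without it the differences were -0.11 (SE 0.17) and -0.085 (SE 0.095), 0 members had an unadjusted p under 0.05, and 11 of 25 members in place of 5 were above 0.

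In the TRIM21 line, 3 members were apart and lower after IgG than after PBS, Ube2e1, Ube2k and Ube2z (5.90% of all tested genes were), and none was higher (3.06% of genes were). In the WT line Ube2l3 and Ube2z were apart and higher after IgG than after PBS (3.79% of genes were) and Ube2t lower (3.95% of genes were), and Ube2l3 was also higher after BSA (2.22% of genes were), with none lower (2.69% of genes were). No member was apart between BSA and PBS in the TRIM21 line, or between IgG and BSA in the TRIM21 or the WT line, where 5.49%, 3.81% and 16.9% of all tested genes were. The IgG and BSA comparisons share the PBS samples, so the values of Ube2l3 in the WT line are given together, with 143 ± 1.04 CPM in the PBS group, 153 ± 3.72 in the BSA group and 155 ± 2.77 in the IgG group (SD, n = 3). Within a line the 95% intervals of the members extended a median of 0.25 to either side on the log2 scale, and 0.36 for the interactions. Smaller responses were not resolved, and the larger ones given above did not pass the test either.

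The cell-cycle E2s were highest in the same-numbered sample of every group. Ube2c in samples 10, 11 and 14 had 34.5, 45.9 and 32.0 CPM after PBS, 36.4, 47.2 and 34.6 after BSA, and 31.4, 40.4 and 31.8 after IgG in the WT line. In the TRIM21 line it had 35.9, 73.1 and 36.5, then 33.0, 53.3 and 33.0, then 34.5, 44.9 and 35.9. Sample 11 was the highest of its group in all 6 groups, at 1.27 to 2.02 times the mean of samples 10 and 14 (median 1.36). The same held for Ube2s, at 1.06 to 1.61 times, and for Ube2t, at 1.07 to 1.36 times. Ube2s in samples 10, 11 and 14 had 19.0, 27.2 and 17.5 CPM after PBS, 23.3, 27.6 and 20.0 after BSA and 19.3, 21.7 and 21.5 after IgG in the WT line. In the TRIM21 line it had 24.2, 38.4 and 23.5, then 21.4, 27.1 and 20.9, then 19.9, 23.8 and 22.1. Its margin was narrowest after IgG. Ube2t had 7.17, 7.62 and 6.61, then 6.84, 7.55 and 5.80, then 5.44, 6.09 and 5.82 in the WT line, and 7.37, 9.50 and 6.61, then 8.02, 8.63 and 5.23, then 6.39, 6.87 and 6.46 in the TRIM21 line. These 3 of 25 members were noticed after their values were seen, and 1.35% of all tested genes had sample 11 highest in all 6 groups.

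A list of 20 mitotic genes moved with them. Their summed CPM was highest in sample 11 in all 6 groups, at 1.07 to 1.57 times the mean of samples 10 and 14, and 9 of the 20 were highest there in each group. Sample 11 of the TRIM21 line after PBS had both the highest Ube2c (73.1 CPM) and the highest mitotic sum (3258 CPM, against 1719 to 2740 in the other 17). Between the lines, the log2 fold changes were 0.18 for Ube2c (SE 0.14), 0.16 for Ube2s (SE 0.11) and 0.14 for Ube2t (SE 0.10), and 20 of 20 mitotic genes were above 0 with a median of 0.22, none passing the test. Without sample 11 of the TRIM21 line after PBS the 3 genes had 0.032, 0.063 and 0.080, and 18 of 20 mitotic genes were above 0 with a median of 0.12. More dividing cells and more of these RNAs per cell cannot be told apart in bulk samples, and the part of the cell cycle in these values was not tested.

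**Figure D5:**
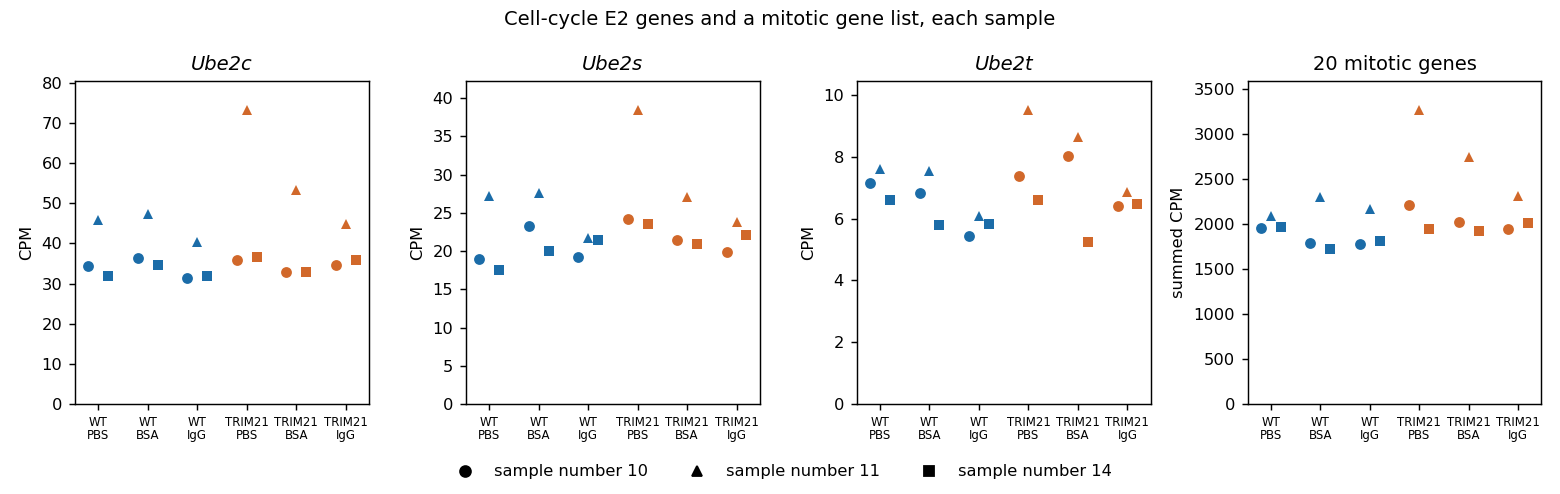
CPM of Ube2c, Ube2s and Ube2t and the summed CPM of 20 mitotic genes in each sample, by line (blue WT, orange TRIM21) and treatment, with symbols for the sample number and axes from 0. The triangle, sample 11, is the highest of its group in every group of every panel, up to 73.1 CPM for Ube2c in the TRIM21 line after PBS.

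Sample 14 had a pattern of its own in a pair of members, likewise noticed after their values were seen. Ube2h was highest in sample 14 in all 6 groups, for example 71.4 CPM against 55.5 and 60.8 in the WT line after PBS, as were 2.03% of all tested genes. Ube2f was lowest in sample 14 in all 6 groups, for example 13.6 CPM against 20.4 and 17.3 in the WT line after IgG, as were 2.10% of all tested genes. What the numbers stand for is not given in the labels.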

How the data were processed

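RNA was measured in 18 samples, 6 groups of 3 by line and treatment as the labels give them. The authors deposited raw counts of reads per gene symbol, 1 table per sample; the submitters' processing notes name STAR 2.5.1b, HTSeq 0.6.0 and the mm10 genome. Lines for reads given to no gene were left out of library sizes, and no-feature reads were 13.1% to 18.8% of each table. Genes were kept by filterByExpr (minimum count 10, minimum total 15), which left 12140 of 24062. TMM factors (0.977 to 1.03) scaled CPM and RPKM. The RPKM lengths were the union of GENCODE exons (GRCm38). A single edgeR 4.0.16 quasi-likelihood model (R 4.3.3) with 1 mean per group and no block was fitted to all 18 samples, with Benjamini-Hochberg adjustment within each of 13 comparisons at 0.05. Standard errors come from the F statistic. The procedure was tested on simulated data.

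The members and lists were chosen with earlier results of these data known. The rule for giving values by sample or group took called members, the 5 highest and the 5 lowest by RPKM, the 3 with the largest difference between the lines, and up to 3 per treatment or interaction comparison with an unadjusted p under 0.05; others are given by role. An exact permutation check was meant for members called between the lines, and none was called. Some genes are not reported here. Alternatives were DESeq2 size factors, no filter, 10 counts in every sample, the sample number as a block, a GC offset, both together, DESeq2 1.42.0, limma-voom 3.58.1, a fit to the compared groups alone, and omission of single samples in turn.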

Additional observations from a re-analysis of the deposited data

How the results depend on the processing

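Members called were 0 under each alternative run for IgG between the lines and for the 9 treatment and interaction comparisons. Averaged over treatments (0 members called), the sample number as a replicate block, the GC offset and the DESeq2 Wald test each called 1 member, Ube2o, and block and GC together called 3 (Ube2b, Ube2h and Ube2o). Over all genes these fits called 1462, 1158, 1040 and 2364 in turn. Leaving out single samples gave 0 to 1 (Ube2o without TRIM21 BSA sample 11, adjusted p = 0.0442). After PBS the block called 1 (Ube2s), block and GC 4 (Ube2e1, Ube2k, Ube2l3 and Ube2s) and leaving out samples 0 to 2 (Ube2cbp and Ube2l3 without TRIM21 PBS sample 14). After BSA block and GC called 1 (Ube2o). The cause of these gains was not tested. The log2 fold change of Ube2c after PBS, 0.37, ran from -0.063 (without TRIM21 PBS sample 11) to 0.56 leaving out samples.

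Over all genes, 750 were called averaged over treatments, with 1462 under the block, 1158 with GC, 2364 with both and 517 to 1268 leaving out samples (1268 without TRIM21 PBS sample 14). After PBS 208 were called, with 132 at 10 counts in every sample, 847 under the block, 343 with GC, 1987 with both, 451 in the Wald test, 44 with only the groups compared and 104 to 1018 leaving out samples (104 without WT PBS sample 14, 122 without TRIM21 PBS sample 11 and 1018 without TRIM21 PBS sample 14). After BSA 103 became 53 (10 counts in every sample), 187 (block), 319 (block and GC) and 164 (Wald), and 66 to 138 leaving out samples. After IgG 94 became 57 (10 counts in every sample), 173 (block), 246 (block and GC), 166 (Wald) and 179 (only the groups compared), and 69 to 148 leaving out samples. Samples of 1 number deviated together in part: over 45 same-number pairs the mean correlation was 0.218 (-0.323 to 0.578, 32 over 0.1). Over 90 pairs with different numbers it was -0.109 (10 over 0.1). Deviations were taken from group means of 3 samples, so a positive first mean forces a negative second one. The second is therefore no separate evidence. Across lines within a treatment, 5 of 9 same-number pairs were over 0.1. The main fit had no block for the numbers. With one, Ube2o was called averaged over treatments and Ube2s after PBS, so the 0 calls there hold for the fit without it. The members' log2 confidence intervals extended a median of 0.15 to either side between the lines, averaged over treatments, and 0.25 within a line. These medians are not limits of detection. Differences within them were not resolved, and larger ones could also go uncalled. Between the lines, Ube2o at 0.26 and Ube2b at -0.18 were not called in the main fit.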
